A study of Mus musculus with 4 samples.

Results

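The miR-17 to miR-92a cluster, known as oncomiR-1, is a group of 6 microRNA (miRNA) hairpins that lie close together on mouse chromosome 14. From the 5′ end these are mmu-mir-17, mmu-mir-18a, mmu-mir-19a, mmu-mir-20a, mmu-mir-19b-1 and mmu-mir-92a-1, written below as miR-17 and so on. Its members were chosen by their names, and all 6 of 6 were found, of 374 annotated loci in all. Each was listed in all 4 libraries at the same start and end and passed the filter on low counts. The libraries are small RNA of whole blood from 180-day-old Balb/c mice, an inbred laboratory strain. There are 2 control libraries and 2 cadmium libraries, the latter from animals that drank water containing cadmium, a toxic metal. All mice had free access to food and water, and no dose or duration is given in the sources used here. Nothing in the labels ties the 2 libraries of a group to separate animals. The p-values below therefore measure the spread among these libraries alone, and that spread may be technical.

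The cluster is transcribed as 1 long primary RNA from its host gene Mir17hg. The enzyme Drosha cuts the hairpins out of this RNA and Dicer then releases the mature miRNAs, so the members share their transcription but are cut and stabilised one by one. Myc and E2F factors drive the gene, which is known for promoting proliferation and survival and is needed for the normal development of B lymphocytes. A miRNA pairs with its target messenger RNAs mainly through its seed, bases 2 to 8 from the 5′ end. miR-17 and miR-20a are known to repress the cell cycle inhibitor Cdkn1a and E2F1, and miR-92a the integrin gene Itga5. miR-18a is known to repress the matrix gene Ctgf, and the RNA-binding protein hnRNP A1 is known to bind its hairpin and promote its cutting.

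The mature sequences are shown because the results set against each other members that differ by as little as 1 base. All 6 members matched the RefSeq table (GRCm38.p6, the assembly of mm10), and the counted window in the lists was the start of the RefSeq sequence for each. The windows of miR-19a and miR-19b-1 ended 1 base earlier. Capitals mark the seed, by which the members fall into 4 groups.
miR-17 (chr14:115043684-115043706, plus strand): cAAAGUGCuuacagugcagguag
miR-20a (chr14:115044183-115044205, plus strand): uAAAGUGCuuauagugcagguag
miR-18a (chr14:115043867-115043889, plus strand): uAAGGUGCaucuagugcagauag
miR-19a (chr14:115044048-115044070, plus strand): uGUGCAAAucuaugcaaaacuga
miR-19b-1 (chr14:115044358-115044380, plus strand): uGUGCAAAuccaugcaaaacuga
miR-92a-1 (chr14:115044476-115044496, plus strand): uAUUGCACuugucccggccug

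miR-17 and miR-20a have the same seed and differ at 2 of 23 bases, C1U and C12U, with the base of miR-17 first and positions counted from the 5′ end. miR-18a differs from miR-17 at 6 bases, and 1 of these, A4G, lies in the seed. miR-19a and miR-19b-1 differ at 1 base of 23, U11C, outside the seed. miR-92a-1 differs from each of the other members at 13 or more of 21 bases. The hairpins span 836 bases, from 115043671 to 115044506, with gaps of 35 to 96 bases, and all 6 lie in exon 2 of Mir17hg (115043271 to 115046727) in the GENCODE annotation. The counted arm was the 5′ arm for miR-17, miR-18a and miR-20a and the 3′ arm for miR-19a, miR-19b-1 and miR-92a-1. The hairpin of miR-18a is printed because this member stood furthest from its control level. Capitals mark the counted mature arm.
miR-18a hairpin (chr14:115043851-115043946, plus strand): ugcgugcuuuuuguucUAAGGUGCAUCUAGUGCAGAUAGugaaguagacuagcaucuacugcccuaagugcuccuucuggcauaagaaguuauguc

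The annotated loci held 35244119 and 24622926 reads in the controls and 14383852 and 15565712 with cadmium. Here and below, paired values stand in the order replicate 1, replicate 2. Levels are given as CPM, counts scaled to a common library total, after TMM normalization, which sets the libraries level on the bulk of loci. All mature windows are 21 to 23 bases long, so length hardly enters a comparison of levels between members. The 2 control libraries differed from each other more than the 2 cadmium libraries did: the median locus differed 1.21-fold between controls and 1.12-fold between cadmium libraries. For miR-19a and miR-19b-1 the controls were 2.29-fold and 2.05-fold apart, a wider gap than at 92.8% and 90.6% of all tested loci. miR-17 stood at the other end, with controls 1.01-fold apart.

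Cadmium blood had more miR-18a, while miR-92a-1 and miR-19a stood within the range of the controls. miR-18a was 4.47-fold higher. The other 3 members, miR-17, miR-20a and miR-19b-1, had higher values in both cadmium libraries but did not pass the test. By an edgeR adjusted p under 0.05 over all loci, 1 of the 6 members was higher with cadmium and 0 were lower, where 7.97% and 6.52% of all 276 tested loci were. At an unadjusted edgeR p under 0.05, 3 members were higher and 0 lower, where 16.7% and 12% of all loci were. In 4 of 6 members both cadmium libraries lay above both controls, beside 39.5% of all loci, and no member lay below both, beside 30.4%. The members' median log2 fold change was 0.35 and that of all tested loci 0.08.

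**Figure D1:**
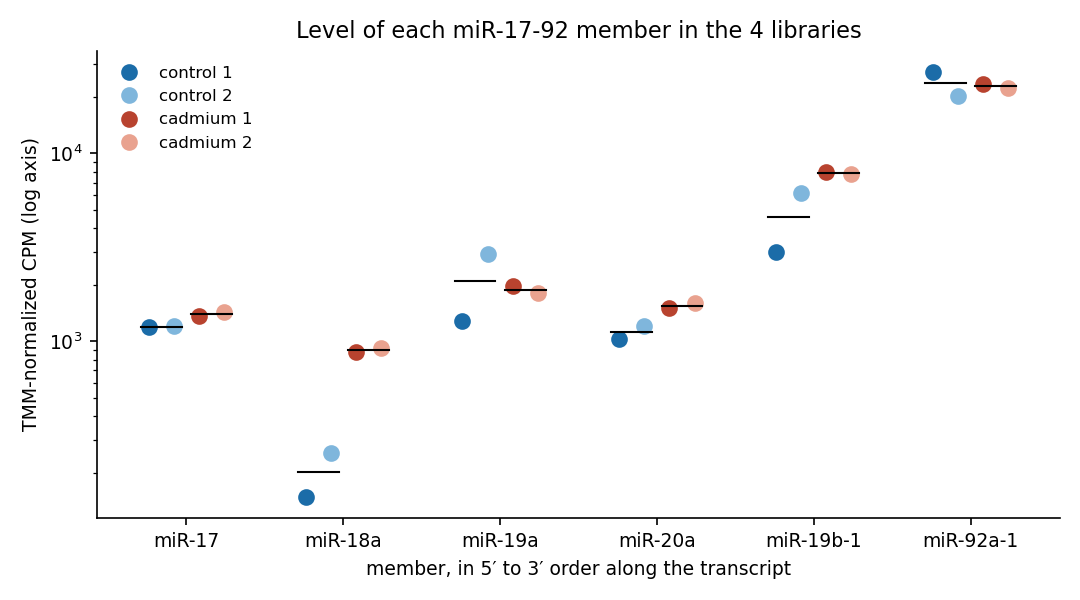
TMM-normalized CPM on a log axis for the 6 members in 5′ to 3′ order, with 1 point per library and a line at the mean of each group. miR-18a is the member with the widest gap between the groups on this axis, at 149 and 254 CPM in controls and 882 and 921 CPM with cadmium.

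miR-18a had 149 and 254 CPM in controls and 882 and 921 CPM with cadmium. The groups did not overlap, and the lower cadmium library was 3.47-fold above the higher control. The group means were 202 ± 74.2 and 902 ± 27.8 CPM (SD, n = 2 each), and the log2 fold change of 2.16 ± 0.26 (SE, edgeR adjusted p = 0.00204) was the second highest of 276 loci. It kept its call under each of the 13 alternatives run. These values ranged from 1.83 without control 1 to 2.60 without control 2, and the adjusted p closest to the threshold was 0.0433, without cadmium 1. In reads, the shallower cadmium libraries held 14270 and 15661 and the deeper controls 4687 and 5701.

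miR-17, the first hairpin of the transcript, had 1190 and 1205 CPM in controls and 1367 and 1424 CPM with cadmium. The cadmium libraries were the higher pair, and the log2 fold change was 0.22 ± 0.13 (edgeR adjusted p = 0.335). miR-20a, its partner in seed, had 1023 and 1208 CPM in controls and 1501 and 1593 CPM with cadmium. Its groups did not overlap either, and the difference of 0.47 ± 0.15 on the log2 scale missed the threshold (edgeR adjusted p = 0.0709). The summed reads of these members made up 6.55% and 7.53% of the cluster in controls and 7.71% and 8.43% with cadmium.

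miR-19b-1 had 2996 and 6138 CPM in controls and 8005 and 7797 CPM with cadmium. Both cadmium libraries were higher, but the gap between the controls exceeded the one between control 2 and the cadmium pair. Its log2 fold change was 0.79 ± 0.28 (edgeR adjusted p = 0.1000), 0.36 without control 1 and 1.40 without control 2. miR-19a had 1276 and 2926 CPM in controls and 1960 and 1814 CPM with cadmium. Here the cadmium libraries lay between the controls, and the log2 fold change of miR-19a was -0.16 ± 0.33 (edgeR adjusted p = 0.747), -0.63 without control 1 and 0.56 without control 2. No direction can be given for miR-19a, whose sign depended on which control was left out. With any 1 library left out, miR-17 stayed at 0.19 to 0.25, miR-20a at 0.36 to 0.60 and miR-19b-1 at 0.36 to 1.40. Such a fit assumes that the lone library varies like the other group. A pass of these members in it is therefore not read as a result.

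miR-92a-1 was the most abundant member in each library, with 27139 and 20322 CPM in controls and 23463 and 22245 CPM with cadmium. The cadmium libraries again lay between the controls, and the log2 fold change was -0.05 ± 0.14 (edgeR adjusted p = 0.779). With its 852811 reads in control 1 and 378056 to 455857 in the other libraries, counting error is small beside the gap between the controls. A miRNA abundant in red cells and their precursors, miR-92a sets most of the cluster's total.

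**Figure D2:**
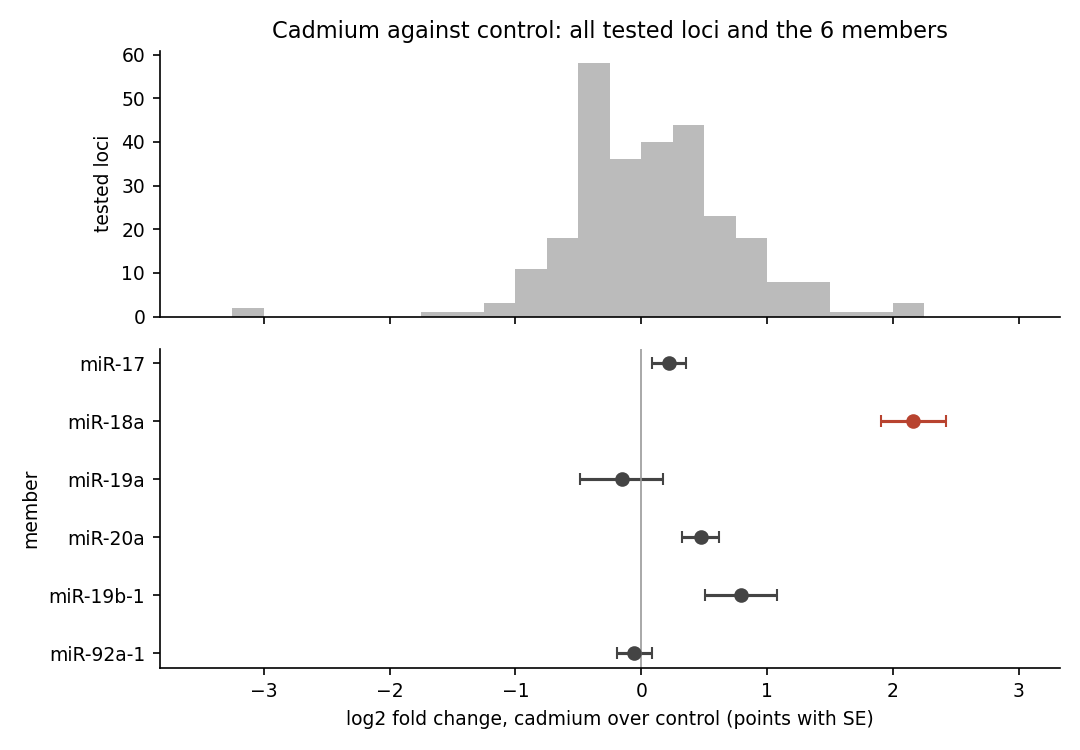
Above, the log2 fold changes of all 276 tested loci, cadmium over control, as a histogram; below, those of the 6 members with their SE, in red where the edgeR adjusted p is under 0.05. miR-18a, at 2.16, lies in the upper tail, and the other members lie between -0.16 and 0.79.

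These levels depend on the scaling. Against TMM, total counts moved the median of all tested loci up by 0.30 and upper quartile scaling by 0.24 on the log2 scale. With total counts, which called 65 loci (57 higher, 8 lower) where TMM called 40 (22 and 18), miR-17, miR-20a and miR-19b-1 passed at 0.52, 0.77 and 1.08 and the small negative values of miR-19a and miR-92a-1 turned positive. The share of a member within the cluster, and the ratio of 1 member to another, need no such scaling.

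Order of level was the same in both cadmium libraries: miR-92a-1, miR-19b-1, miR-19a, miR-20a, miR-17, miR-18a. Controls had miR-92a-1, miR-19b-1 and miR-19a in the top 3 places and miR-18a in the last. Their miR-17 and miR-20a overlapped, so these neighbours did not differ beyond the spread of the controls. miR-19a was above both in each control, at a mean of 2101 ± 1167 CPM (SD, n = 2). The means of miR-17 (1197 ± 10.7 CPM) and miR-20a (1115 ± 131 CPM) lie closer to it than that SD. By this measure miR-19a did not differ from either beyond its spread. In cadmium libraries the 6 members did not overlap one another. miR-17 was 7.98 and 4.74 times as abundant as miR-18a in controls 1 and 2, and 1.55 times in cadmium 1 and 1.55 times in cadmium 2.

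Summed over the 6 members, the cluster took 1061268 and 719008 reads in controls, against 601422 and 608324 with cadmium. The members made up 4.96% and 4.74% of the annotated reads in controls and 6.77% and 6.36% with cadmium, with each mature sequence counted once in the total. The means were 4.85% ± 0.151 and 6.56% ± 0.289 (SD, n = 2 each). On the TMM scale the cluster stood at 32913 ± 1216 CPM in controls and 36486 ± 978 CPM in cadmium blood. The exact two-sided permutation test of 2 libraries against 2 cannot give a p under 0.333, which is the value of both differences.

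In the division of these reads, miR-18a took a larger part of the cluster with cadmium. Its share was 0.442% and 0.793% in controls and 2.37% and 2.57% with cadmium, with means of 0.617% ± 0.248 and 2.47% ± 0.143 (SD, n = 2 each). In a fit over all loci with each library's size set to the reads of the cluster, the share was 4.01-fold higher, with an SE of 0.26 on the log2 scale (edgeR adjusted p = 0.00232). It was the 1 share of 6 past the threshold, beside 16.7% of all loci that passed in that fit, 6.52% higher and 10.1% lower. Counting error is small here: the widest 95% Wilson interval of any share, that of miR-92a-1 in cadmium 1, ran from 63.0% to 63.2%. Such intervals cover counting error only, since reads copied by PCR are not independent molecules.

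miR-92a-1 held 80.4% of the cluster's reads in control 1, against 63.4% in control 2 and 63.1% and 62.1% with cadmium. Control 1 stood apart, and control 2 lay less than 1 percentage point above cadmium 1. miR-19b-1 held 8.87% and 19.2% in controls and 21.5% and 21.8% with cadmium, and miR-19a held 3.78% and 9.13% in controls and 5.27% and 5.07% with cadmium. In both cases control 1 had the lowest share of the 4 libraries. miR-17 held 3.52% and 3.76% in controls and 3.68% and 3.98% with cadmium, which overlap, and miR-20a held 3.03% and 3.77% in controls and 4.04% and 4.45% with cadmium, which do not. The adjusted p of these 5 shares ran from 0.195 to 0.732 (edgeR, adjusted over all loci).

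**Figure D3:**
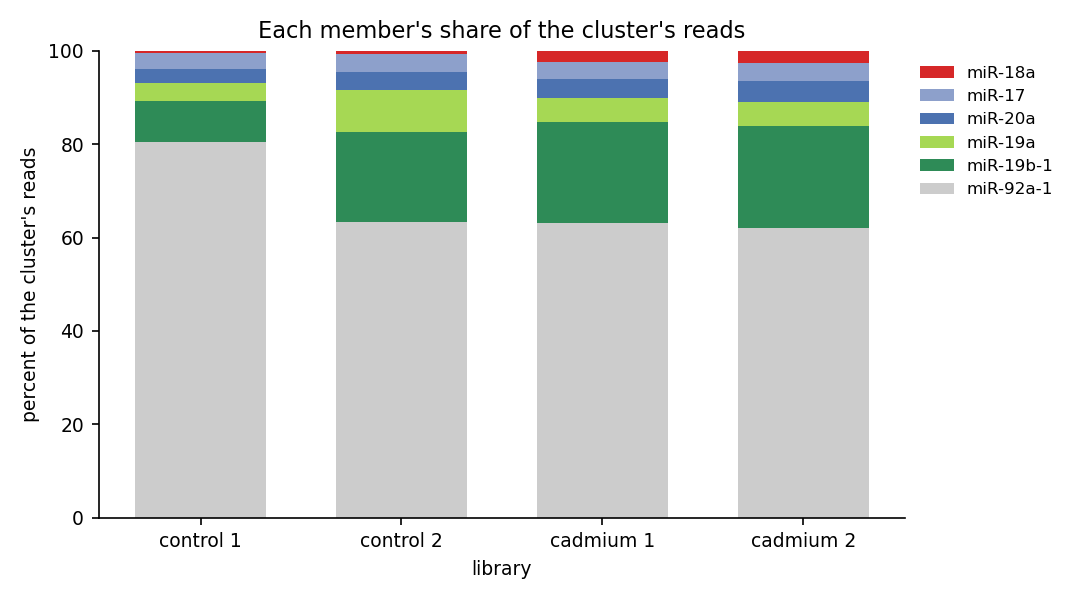
Percent of the cluster's reads held by each member, stacked to 100 for each library. miR-92a-1 (grey) holds 80.4% in control 1 and 62.1% to 63.4% in the other 3, and miR-18a (red, at the top) holds under 1% in both controls and 2.37% and 2.57% with cadmium.

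With miR-92a-1 left out of the sum, the controls agreed closely on miR-18a. It held 2.25% and 2.17% of the reads of the other 5 members in controls and 6.43% and 6.80% with cadmium. The log2 fold change of that share was 1.58 (edgeR adjusted p = 0.0420). This sum was chosen after the values were seen. In it miR-19b-1 held 45.2% and 52.3% in controls and 58.4% and 57.5% with cadmium, and miR-19a held 19.2% and 24.9% in controls and 14.3% and 13.4% with cadmium. Both controls lay below both cadmium libraries for miR-19b-1 and above them for miR-19a. The differences of miR-17 and miR-20a turn negative in this sum, with values that overlap between the groups for each.

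Ratios between members were compared for all 15 pairs. The groups did not overlap in 10 pairs, in all 5 pairs with miR-18a and in 5 of the 10 pairs without it. Of all 37950 pairs of tested loci, 60.2% did not overlap, so the count over the 15 pairs is near that background. In fits with each library's size set to the reads of the more abundant member of a pair, 2 pairs passed the threshold, miR-18a with miR-17 and miR-18a with miR-20a. The log2 ratio of miR-18a to miR-20a was 1.71 ± 0.23 higher with cadmium (edgeR adjusted p = 0.0277), beside 27.2% of all loci that changed relative to miR-20a, 3.62% higher and 23.6% lower. The log2 ratio of miR-17 to miR-18a was lower by 1.94 ± 0.28 (edgeR adjusted p = 0.0178), beside 16.3% of loci that changed relative to miR-17, 5.07% higher and 11.2% lower. Both calls were lost without cadmium 1 (adjusted p = 0.214 and 0.158) and without cadmium 2 (adjusted p = 0.152 and 0.196), with log2 ratios of 1.70 and 1.72 for the first pair and -1.94 and -1.94 for the second.

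Per read of miR-20a there were 0.146 and 0.210 reads of miR-18a in controls and 0.588 and 0.578 with cadmium. Per read of miR-17 the values were 0.125 and 0.211 in controls and 0.645 and 0.647 with cadmium, so the cadmium libraries were nearly equal while the controls were 1.68-fold apart. Per read of miR-92a-1 there were 0.00550 and 0.0125 reads of miR-18a in controls and 0.0376 and 0.0414 with cadmium. This log2 ratio was 2.13 ± 0.40 higher (edgeR adjusted p = 0.0929, beside 0.725% of loci that changed relative to miR-92a-1). Whether it passed depended on the fit, and it did with miR-18a as the reference (edgeR adjusted p = 0.000884). That fit sets every locus against miR-18a, itself 4.47-fold higher with cadmium on the TMM scale. How many of all loci passed in it is not given here, so that pass is not read as a result. With each library left out in turn this log2 ratio was 1.66 to 2.85 higher, in fits that assume the lone library varies like the other group. It also passed with miR-92a-1 and its copy taken out of the fit (edgeR adjusted p = 0.00322), an alternative added after the data were seen.

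miR-18a and miR-19b-1 kept a steadier ratio in controls. Per read of miR-19b-1 there were 0.0498 and 0.0414 reads of miR-18a in controls and 0.110 and 0.118 with cadmium. The log2 ratio was 1.32 ± 0.47 higher (edgeR adjusted p = 0.187), and per read of miR-19a it was 2.23 ± 0.71 higher (edgeR adjusted p = 0.124). Relative to miR-19b-1, 0 of 276 loci passed in edgeR and 69 had an unadjusted p under 0.05, and relative to miR-19a 0.725% passed. The wide gap between the controls in these reference members enters the spread of every locus in those fits.

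For the near-identical miR-19a and miR-19b-1, the groups did not overlap in the ratio of one to the other. Per read of miR-19b-1 there were 0.426 and 0.477 reads of miR-19a in controls and 0.245 and 0.233 with cadmium. The controls agreed to 1.12-fold here, although the level of each member differed over 2-fold between them, and the cadmium libraries agreed to 1.05-fold. The mean log2 ratio was -1.15 ± 0.11 in the controls and -2.07 ± 0.05 in cadmium blood (SD, n = 2 each), a difference of 1.89-fold and 8.01 times the larger SD, the widest of the 15 pairs by that measure. The exact two-sided permutation p = 0.333 is the smallest that 2 against 2 can give, and in the fit relative to miR-19b-1 the log2 difference was -0.92 ± 0.44 (edgeR adjusted p = 0.197). It passed without control 1 (edgeR adjusted p = 8.83e-24) and without control 2 (edgeR adjusted p = 4.19e-18), fits in which the lone control is assumed to vary like the cadmium libraries. It did not pass without cadmium 1 (edgeR adjusted p = 0.885), without cadmium 2 (edgeR adjusted p = 0.871) or with miR-19a as the reference (edgeR adjusted p = 0.980).

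The other pair that shares a seed, miR-17 and miR-20a, had a smaller gap. The ratio of miR-17 to miR-20a was 1.16 and 0.997 in controls and 0.911 and 0.894 with cadmium. Both cadmium libraries were lower, by a log2 difference of -0.25 ± 0.13 (edgeR adjusted p = 0.246). Of the pairs without miR-18a, 5 overlapped between the groups: miR-17 with miR-19a, miR-17 with miR-92a-1, miR-19a with miR-20a, miR-19a with miR-92a-1 and miR-20a with miR-19b-1. miR-19a and miR-92a-1 had the least stable ratio in controls, 3.06-fold apart, and 1.02-fold apart in cadmium libraries.

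**Figure D4:**
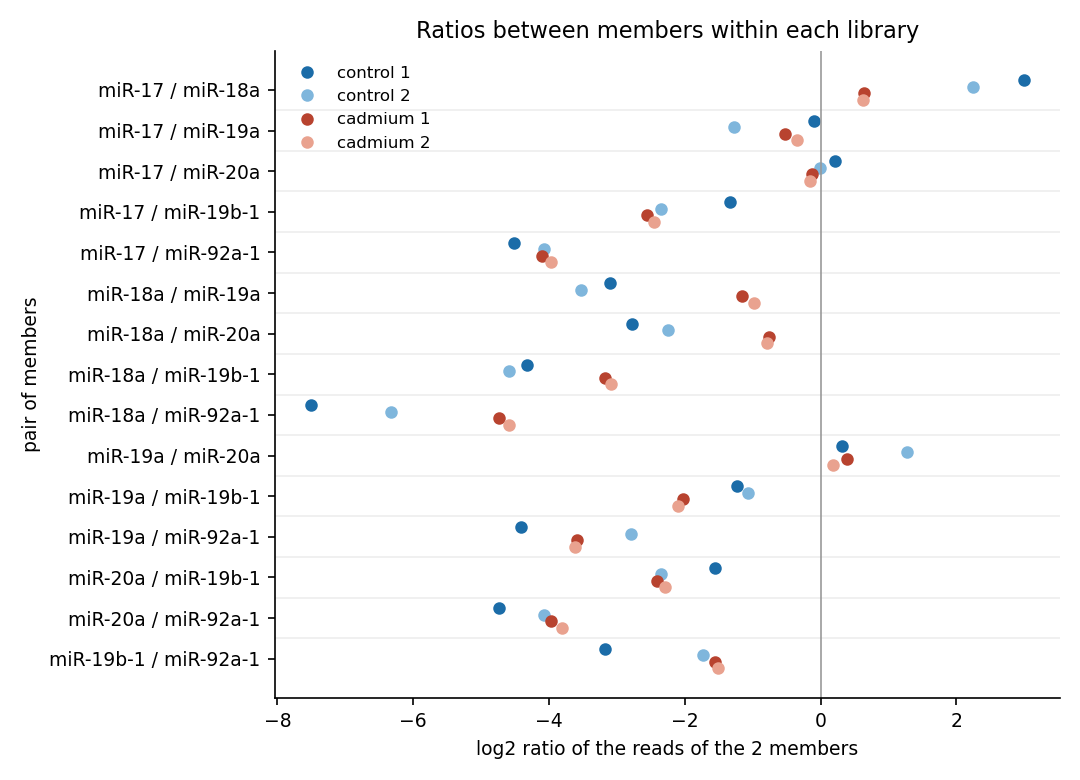
Log2 ratio of the reads of 2 members within each library for the 15 pairs, with 1 point per library. In the 5 pairs with miR-18a both cadmium points lie on one side of both control points, and the tightest control pair, relative to the gap between groups, is that of miR-19a with miR-19b-1.

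The place of a hairpin in the transcript did not order the values. From the first hairpin to the last, the log2 fold changes were 0.22, 2.16, -0.16, 0.47, 0.79 and -0.05. The neighbours of miR-18a, miR-17 at a gap of 96 bases and miR-19a at 53 bases, had 0.22 and -0.16. Arms did not separate the members either: those counted on the 5′ arm had 0.22, 2.16 and 0.47 and those on the 3′ arm -0.16, 0.79 and -0.05. The GC content of the mature sequences ran from 34.8% in miR-19a to 57.1% in miR-92a-1, with miR-18a at 43.5%.

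**Figure D5:**
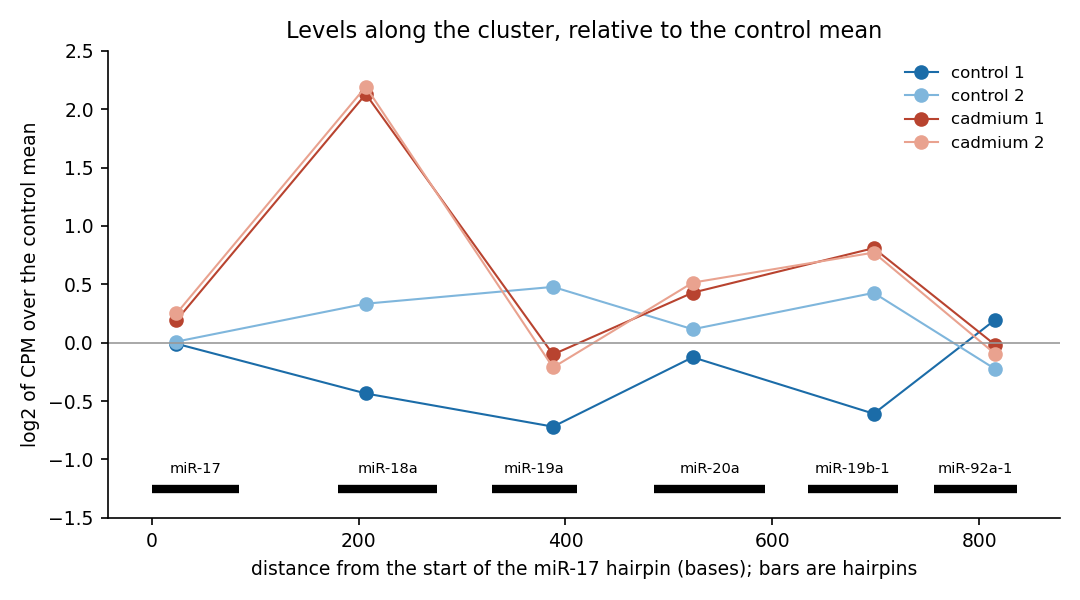
Log2 of each library's CPM over the mean of the controls, at the middle of each mature miRNA, against the distance in bases from the start of the miR-17 hairpin. The cadmium libraries lie close together at each member and stand over 2 above the control mean at miR-18a only, while the controls are furthest apart at miR-19a.

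Some members share reads with copies elsewhere. miR-19b-1 has the same mature sequence as miR-19b-2 on chromosome X, and both loci listed the same number of reads in each library, so reads of the 2 loci could not be told apart. miR-92a-1 and miR-92a-2, also on chromosome X, have the same window sequence but different counts: miR-92a-2 had 78.2%, 78.3%, 77.9% and 75.6% of the count of miR-92a-1 in controls and cadmium libraries 1 and 2. How reads that match both loci were assigned is not given. The part of the miR-92a-1 count that came from chromosome 14 is therefore not known. miR-17, miR-18a, miR-19a and miR-20a share their mature sequence with no other tested locus. With the shares taken over these 4 members alone, the log2 fold change of the miR-18a share was 1.86 (edgeR adjusted p = 0.000692).

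The seed of miR-17 and miR-20a is also that of 4 tested loci outside the cluster: miR-106a and miR-20b in the paralog cluster on chromosome X, and miR-106b and miR-93 in that on chromosome 5. Of these, 2 passed the test as higher with cadmium, beside 7.97% of all tested loci. They were miR-106a (log2 fold change 1.20 ± 0.22, edgeR adjusted p = 0.00979) and miR-20b (0.86 ± 0.24, edgeR adjusted p = 0.0486). Both were at low levels, 3.47 to 12.1 CPM and 81 to 206 reads per library. The 4 had a median of 0.68. Together, the 6 sequences with this seed had 12026 and 18063 CPM in controls and 19865 and 20182 CPM with cadmium, of which miR-17 and miR-20a made up 13.4% to 18.4%, and miR-93 alone had 8777 and 14564 CPM in controls and 15373 and 15794 CPM with cadmium. No tested locus outside the cluster has the seed of miR-18a, and miR-19b-2 is the only one with that of the miR-19 members. The seed of miR-92a-1 is shared with miR-92a-2, miR-32 and miR-363, of which 0 passed in edgeR or at an unadjusted p under 0.05. miR-92a made up over 99% of the reads of its seed in each library.

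Of the paralog clusters, 5 of 6 loci on chromosome X and 2 of 3 on chromosome 5 were tested. Of these 2 and 0 passed, beside 14.5% of all tested loci. The 2 are miR-106a and miR-20b, already counted by their seed. On chromosome X, miR-19b-2 and miR-92a-2 carry mature sequences of cluster members and are not separate measurements. miR-18b and miR-25 are not analysed here.

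By likeness of pattern, the loci nearest to miR-18a over the 4 libraries were miR-1930, miR-326, miR-491, miR-324 and miR-700. The root mean square difference of their log2 CPM from that of miR-18a, each centred on its own mean, was 0.04, 0.17, 0.28, 0.32 and 0.45, the smallest of 205 sequences compared. miR-1930 was at a low level, 0.382 and 0.669 CPM in controls and 2.23 and 2.24 CPM with cadmium. The sequences nearest to the summed reads of the cluster were miR-872, miR-29a and miR-138-1, at 0.02, 0.04 and 0.05. With 4 libraries this is a description.

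Levels of cell type markers also differed between the groups. In bulk blood, fewer cells of a type and less RNA per cell cannot be told apart. Of the red cell markers, 2 of 4 names were listed, miR-486 and miR-144. Both passed the test as lower, beside 6.52% of all tested loci. Their summed level was 258776 to 279737 CPM in controls and 172101 to 183915 CPM with cadmium. All 5 lymphocyte names were listed (miR-150 and the miR-181a and miR-181b loci). Each was lower in both cadmium libraries, beside 30.4% of all tested loci. Of these, 2 passed the test, the copies of miR-181a that carry the same reads, beside 6.52% of all loci that passed as lower. The summed level was 3299 to 4401 CPM in controls and 2220 to 2222 CPM with cadmium. Of the list used for myeloid cells only miR-142 was listed (1 of 2 names), with 5510 to 5963 CPM in controls and 5060 to 5908 CPM with cadmium. This 1 name is no measure of myeloid cells alone. The platelet miR-126a (1 of 2 names) had 182 to 241 CPM in controls and 180.1 to 200.1 CPM with cadmium. Neither miR-142 nor miR-126a passed the test. The liver miRNA miR-122 (1 of 2 names) stood at 6.31 and 6.71 CPM in cadmium blood and 0.509 CPM in control 1, with no entry in control 2. Of the muscle markers, 3 of 6 names were listed and, with unlisted loci taken as 0, they summed to 13.1 to 34.4 CPM in controls and 43.2 to 45.4 CPM with cadmium. The other names of these lists are not analysed here. The part of these markers in the values of the cluster was not tested.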

How the data were processed

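Small RNA libraries of whole blood (2 control, 2 cadmium) were made from total RNA by standard Illumina methods, per the labels' protocols. The authors deposited 1 list per library with a count of mature reads per locus, not normalized, per the file headers. Bowtie 0.12.2, DESeq and build mm10 are named in the submitters' processing notes, with no role given; the miRNA release is not given in the sources used here. Near-identical members such as miR-19a and miR-19b-1 depend on how mismatches were allowed, which is not given either.

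Names and star forms at the same locus and count were merged, an unnamed row holding the column total of cadmium 1 was left out, and the lowest listed count was 5, so an unlisted locus is not a measured 0. In control 2 the sequence column matched its windows for 160 of 682 loci and was not used. Every library listed 289 of the 374 annotated loci, 277 of these with overlapping windows, taken as the same arm; filterByExpr kept 276. Total counts ranged from 14383852 to 35244119. At this depth, spread between libraries exceeds counting error for every member: over the 6 members, chi-square per degree of freedom was 14776 between controls and 64.2 between cadmium libraries, so no library is another listed again.

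The test was edgeR 4.0.16 in R 4.3.3 (quasi-likelihood F test, TMM, two-sided, Benjamini-Hochberg over all tested loci, threshold 0.05), with a group term alone, which leaves 2 residual degrees of freedom. SE is the log2 fold change over the square root of F. Shares and ratios were fitted on the same loci with library sizes set to the cluster's or 1 member's reads. The script was tested on simulated data. Alternatives were other scalings, no filter, DESeq2 1.42.0, the replicate number as a block, other sets of loci, other denominators and each library left out. Members and lists were chosen with earlier results of these data known. Named loci are the 6 members, loci sharing a sequence or seed with them in the paralog clusters, the 5 loci most like miR-18a, the 3 most like the cluster sum and the marker lists. Sequences are from RefSeq; SciPy 1.17.1 gave exact tests and matplotlib 3.10.9 the figures.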

Additional observations from a re-analysis of the deposited data

How the results depend on the processing

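miR-18a kept its direction and its call in all 13 alternatives for its level (1.83 to 2.60 on the log2 scale with a library left out) and in all 9 for its share. The other members depended on scaling and on the controls. Total counts gave 65 changed loci in place of 40, with miR-17 at 0.52, miR-20a at 0.77 and miR-19b-1 at 1.08 past the threshold and miR-19a (0.14) and miR-92a-1 (0.25) turned positive. Upper quartile scaling gave 0.70 and 0.99 for miR-20a and miR-19b-1, past the threshold, and 0.040 and 0.20 for miR-19a and miR-92a-1. With predicted loci included there were 70 calls, and miR-20a and miR-19b-1 passed at 0.50 and 0.83. With a library left out, there were 105 calls without control 1, 122 without control 2, 8 without cadmium 1 and 9 without cadmium 2 (the lone library is then assumed to vary like the other group), and the log2 fold changes from 0.19 to 0.25 for miR-17, 0.36 to 0.60 for miR-20a, 0.36 to 1.40 for miR-19b-1, -0.63 to 0.56 for miR-19a and -0.25 to 0.17 for miR-92a-1. miR-19a turned at 0.56 without control 2 and miR-92a-1 at 0.17 without control 1. Without either control, miR-17 (adjusted p = 0.0274 without control 1, 0.0111 without control 2), miR-20a (7.49e-05, 1.45e-11), miR-19b-1 (3.55e-06, 5.90e-51) and miR-19a (4.74e-14, 5.53e-11) passed in edgeR, and miR-92a-1 passed without control 2 (0.00107), where the spread comes from the 2 close cadmium libraries alone. Without either cadmium library, miR-18a was the 1 member that passed. Shares past the threshold ran from 1 to 5 (2 without control 1, 5 without control 2) and pairs from 1 to 14 (9 without control 1, 14 without control 2, 1 without either cadmium library). How many of all loci passed in those share and ratio fits with a library left out is not given here. Calls over all loci rose in the level fits without a control as well. The counts of shares and pairs in such fits are therefore not read as results. The miR-19a share was -0.82 without control 1 and 0.45 without control 2, the log2 ratio of miR-17 to miR-19a 0.85 and -0.33, and that of miR-19a to miR-92a-1 -0.80 and 0.81. Without miR-92a-1 in the sum the shares of miR-17 and miR-20a turned to -0.46 and -0.18, and without miR-19b-1 as well that of miR-17 to -0.16. With the less abundant member as reference 5 pairs passed in place of 2. These were the 5 pairs with miR-18a, all read from 1 fit with miR-18a as the reference. How many of all loci passed in that fit is not given here, so these are not read as separate results. The ratio of miR-19a to miR-92a-1 turned to 0.22 with miR-19a as the reference. The cause of these changes was not tested, beyond the fewer libraries and other sums themselves.

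The labels number the libraries 1 and 2 in each group. Deviations of same-numbered libraries from their group means had a correlation of 0.00 across loci. That shows no pairing by number, but with 2 libraries per group it cannot exclude one. With the replicate block there were 19 changed loci, miR-18a was at 2.21 (edgeR adjusted p = 0.0233), 3 pairs passed, and the ratio of miR-19a to miR-92a-1 turned to 0.0039. The ratio of miR-18a to miR-20a lost its call (1.73, adjusted p = 0.0683), that of miR-18a to miR-92a-1 passed (adjusted p = 4.74e-08), and that of miR-19a to miR-19b-1 did not (adjusted p = 0.567).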
